A study of Mus musculus with 2 samples.

Results

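The imprinted Igf2-H19 and Dlk1-Meg3 domains were examined in mouse embryo cells at embryonic day 9.5. Their members were the rows of the deposited transcript table whose locus overlapped chromosome 7 from 149760000 to 149856000 or chromosome 12 from 110685000 to 110990000 of mm9. These were 88 of the 55418 rows, 7 on chromosome 7 and 81 on chromosome 12, at 38 of 24214 loci. The 7 genes named for these windows were H19 and Igf2 on chromosome 7, and Dlk1, Meg3, Rtl1, Rian and Mirg on chromosome 12. The members were chosen by position, though with earlier results of these data known.

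The embryos came from mTmG reporter mice crossed with Grhl3-cre mice, both on a C57BL/6 background, and had 21 to 25 somites. The mTmG reporter gives red membrane fluorescence that Cre recombination switches to green. The green pool, cells with a history of Grhl3-driven Cre, was labelled non-neural ectoderm, and the red pool held the rest of the neural tube cells. RNA from 25 embryos was pooled, and each pool gave 1 library, so no spread between replicates can be given. The table calls its conditions q1 and q2. Neither name matches the label of a pool, so each difference is given as q2 against q1 and no pool is said to be higher. For the same reason the abundances listed per condition were left aside, and only the ratios and tests of the authors' comparison are described. No level of a gene, and no order of levels, is therefore given.

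An imprinted gene is expressed from the copy inherited from 1 parent. Igf2, a growth factor of the embryo, is expressed mainly from the paternal copy, and its neighbour H19, a long noncoding RNA, from the maternal copy. They share enhancers, and a methylated control region between them decides which gene the enhancers reach. In the other domain, Dlk1 and Rtl1 are expressed from the paternal copy, while Meg3, Rian and Mirg are noncoding RNAs of the maternal copy that carry many small RNAs. Both domains are known for high expression in mesoderm and other tissues of the growing embryo.

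The chromosome 12 domain is one of the largest microRNA clusters of mammals, and microRNA hairpins made up most of its separate small loci. In all, 31 member rows, from 61 to 121 bases long, lay outside the 7 genes. For 30 of them the length and the spacing to the other small loci matched RefSeq hairpins (build GRCm38.p6). All 31 were left untested by the authors, with a ratio of 0 and a p-value of 1 entered in place of a measurement. This says nothing of the mature microRNAs, since a standard mRNA library does not collect RNAs of their length. The 30 hairpins give 55 different mature microRNAs with 50 different seeds, and 5 seeds were shared by 2 microRNAs. Examples are shown because the shared seeds tell how the cluster's members relate, with the seed (bases 2 to 8) in capitals.
miR-379-3p: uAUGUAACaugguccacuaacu
miR-411-3p: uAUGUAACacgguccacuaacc
miR-379-5p: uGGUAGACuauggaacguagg
miR-1193-5p: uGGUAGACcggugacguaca
miR-1197-5p: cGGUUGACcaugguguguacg
miR-758-5p: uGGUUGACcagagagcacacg
miR-376b-5p: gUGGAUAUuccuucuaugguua
miR-376c-5p: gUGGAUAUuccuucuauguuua
The hairpin of miR-379 lay on chromosome 12 from 110947270 to 110947335 of mm9, and that of miR-411 from 110948385 to 110948466. Their 3p arms share the seed AUGUAAC, while the 5p arm of miR-379 shares GGUAGAC with miR-1193-5p.

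Other microRNAs of the domains lie inside the member genes. A further set lies antisense to Rtl1, on the maternal transcript, and is shown because it is complementary to the Rtl1 message, which it is known to cleave. Of the 7 rows at the Rtl1 locus, 4 were left untested, but the table gives only the span of the whole locus, so that no row there can be tied to 1 hairpin.
miR-127-3p: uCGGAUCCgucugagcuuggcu
miR-136-5p: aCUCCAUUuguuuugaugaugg
miR-431-5p: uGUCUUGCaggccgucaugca
miR-433-3p: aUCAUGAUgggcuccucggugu
miR-434-3p: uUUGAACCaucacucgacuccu
H19 is itself the precursor of miR-675, which is cut from its first exon.
miR-675-5p: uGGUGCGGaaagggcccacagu
miR-675-3p: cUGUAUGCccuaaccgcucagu
No 2 of these 7 arms share a seed.

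The promoters of Dlk1 and Meg3 are shown as those of neighbours expressed from opposite parental copies. Their ratios between the conditions were close (below), but the interval of their difference, from -1.09 to 1.11, is too wide to call them alike. Each run covers 250 bases before to 50 after the RefSeq start, on the plus strand, with CpG dinucleotides in capitals. That of Dlk1 lies at chr12:109452573-109452872 and the first of 2 listed for Meg3 at chr12:109540746-109541045, both on GRCm38.p6, a later build than that of the table.
Dlk1: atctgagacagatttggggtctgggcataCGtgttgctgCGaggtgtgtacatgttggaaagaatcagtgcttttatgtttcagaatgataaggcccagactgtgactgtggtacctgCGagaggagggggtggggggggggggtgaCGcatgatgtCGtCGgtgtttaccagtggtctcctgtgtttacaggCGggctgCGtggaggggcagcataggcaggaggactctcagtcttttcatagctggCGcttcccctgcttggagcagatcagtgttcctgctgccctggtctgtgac
Meg3: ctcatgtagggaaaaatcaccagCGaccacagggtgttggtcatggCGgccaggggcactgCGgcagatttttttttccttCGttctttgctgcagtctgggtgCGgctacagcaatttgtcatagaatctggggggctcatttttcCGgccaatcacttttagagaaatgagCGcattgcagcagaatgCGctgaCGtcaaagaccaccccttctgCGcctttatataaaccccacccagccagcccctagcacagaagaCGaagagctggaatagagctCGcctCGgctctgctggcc
The Dlk1 window holds 9 CpG and the printed Meg3 window 13, against a median of 7 over 32851 such windows. The letters TATAAA and CCAAT, searched on both strands, were found in the printed Meg3 window and not in that of Dlk1. The second Meg3 window, at chr12:109545148-109545447, holds 1 CpG and neither motif. Of all windows, 13.6% hold TATAAA and 37.4% hold CCAAT. These counts describe the sequence only.

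Each gene is described first by its most precise transcript, the tested row with the lowest error. The error is the size of the log2 ratio divided by that of its test statistic, both from the authors' deposited table. It covers what the authors' model covers and no spread between embryos or sorts. H19, at chromosome 7 from 149761436 to 149764051, had the largest ratio of the 7 and lay above 0, at a log2 ratio of 0.65, or 1.57-fold higher in q2. Igf2, at chromosome 7 from 149836673 to 149856261, lay on the other side at -0.28, or 1.22-fold lower in q2. The 5 genes of the chromosome 12 domain lay between -0.16 and 0.09.

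None of these differences passed the authors' test. Of the 28 member rows the authors tested, 0 were called at their q-value limit of 0.05, against 0.803% of all 29405 tested rows. An unadjusted p-value under 0.05 was found in 0 of the 28, against 3.1% of all tested rows. The lowest p-value of a member in the authors' deposited table was 0.201, for H19, and the next was 0.479. The lowest q-value was 0.999983. The test compares 2 libraries, and a p-value of this size does not show that the domains were equal in them.

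**Figure D1:**
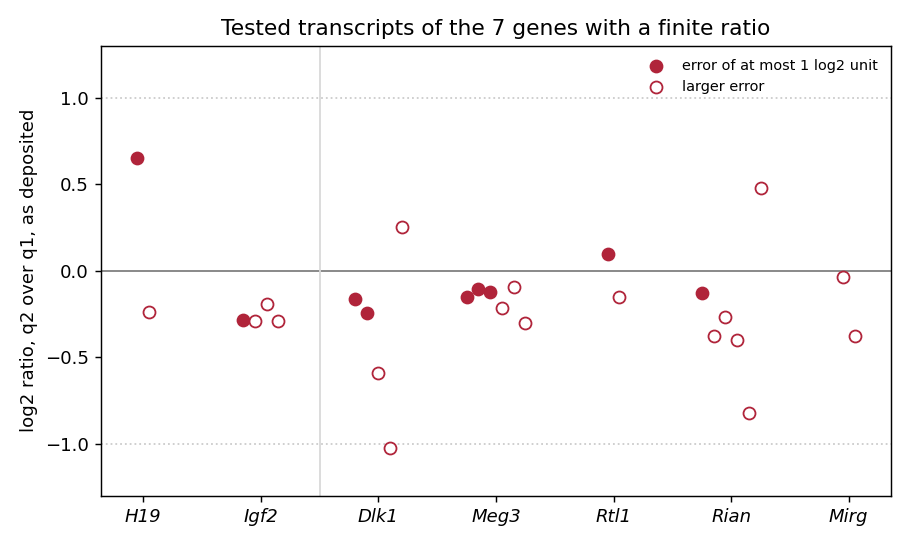
Deposited log2 ratio of q2 over q1 (vertical axis) for the 27 tested transcripts of the 7 genes with a finite ratio, 1 point per transcript in order of rising error within a gene, filled where the error is at most 1 log2 unit. The most precise H19 transcript lies at 0.65, all Igf2 and Meg3 points lie below 0, and dotted lines mark 2-fold.

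H19, the maternally expressed RNA of the chromosome 7 domain, had 2 tested rows that lay on opposite sides of 0. For uc009kob.1 the log2 ratio was 0.65 with an error of 0.51, a 95% interval from -0.35 to 1.65. The interval holds no difference as well as a 3.14-fold higher value in q2, so that these libraries do not settle the direction of H19. The other row, uc012fxn.1, was at -0.24, but its error of 105 log2 units leaves that estimate without a direction. Both rows list only the span of the whole locus, so which RNA within it uc012fxn.1 stands for is not known.

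Igf2, the growth factor of the pair, had 5 rows, of which 4 were tested. The most precise, uc009kod.2, had a log2 ratio of -0.28 with an error of 0.60 and an interval from -1.46 to 0.89. The others were close to it, with uc012fxo.1 and uc012fxp.1 both at -0.29 and uc009koe.1 at -0.19, though their errors ran from 1.68 to 5.27. The 4 share reads of 1 locus and are not independent. The difference between the ratios of H19 and Igf2, taken from the most precise row of each, was 0.94 with an error of 0.79. Its interval, from -0.61 to 2.48, treats the errors as independent and holds 0. The opposite signs of these neighbours are thus within the error of the authors' model.

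**Figure D2:**
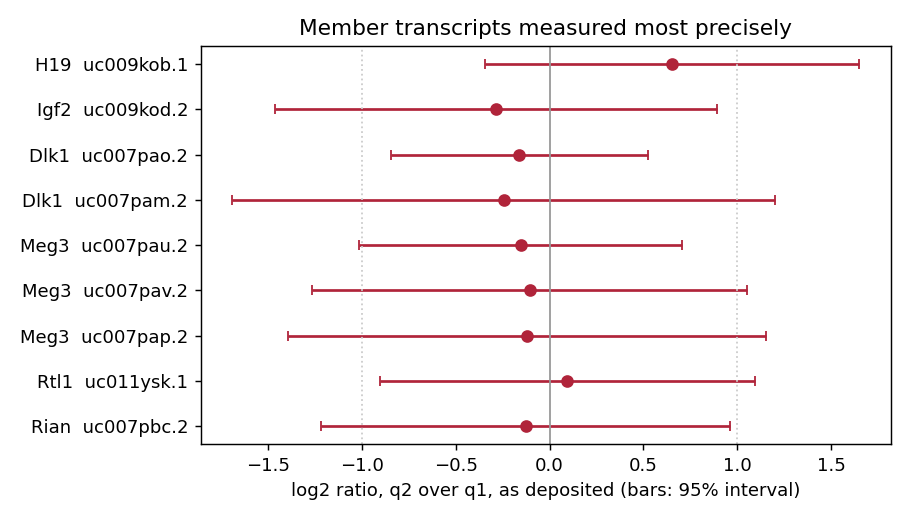
Deposited log2 ratio of q2 over q1 (horizontal axis) for the 9 tested member transcripts whose error does not exceed 1 log2 unit, with 95% intervals from the deposited statistic as bars and dotted lines at 2-fold. All 9 intervals hold 0, and that of H19 reaches from -0.35 to 1.65.

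In the chromosome 12 domain, Dlk1 was the most precisely measured gene. Dlk1 encodes a membrane protein related to Notch ligands, and its locus ran from 110691033 to 110701546. The transcript uc007pao.2 had a log2 ratio of -0.16 with an error of 0.35, an interval from -0.85 to 0.52. A 2-fold difference in either direction lies outside that interval, which covers no spread between embryos or sorts. The second, uc007pam.2, was at -0.24 with an error of 0.74. Its interval, from -1.69 to 1.20, holds a 2-fold difference in both directions. The remaining 3 Dlk1 rows had errors above 2 log2 units and spread from -1.02 to 0.25. The lowest of them, uc011yrz.1, was 1 of the 2 tested member rows at least 2-fold lower in q2. Its ratio of -1.02 had an error of 2.76, so it cannot be told from no difference.

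Meg3, the long noncoding RNA of the maternal copy, had several precise rows with close ratios. Its locus ran from 110779206 to 110809939, and 6 of its 9 rows were tested. All 6 were lower in q2, between -0.30 and -0.09. The rows at these ends, uc007pat.2 and uc011ysb.1, had errors of 48.9 and 2.56 log2 units and carry no direction. The transcripts uc007pau.2, uc007pav.2 and uc007pap.2 had ratios of -0.15, -0.11 and -0.12. Their errors were 0.44, 0.59 and 0.65. The interval of uc007pau.2 ran from -1.01 to 0.71. Meg3 and Dlk1, expressed from opposite parental copies, differed in log2 ratio by 0.0074 with an error of 0.56, an interval from -1.09 to 1.11.

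Rian, a noncoding RNA that hosts small nucleolar RNAs, had 11 rows over the locus from 110842155 to 110899921, of which 7 were tested. The most precise, uc007pbc.2, was at -0.13 with an error of 0.56. The next, uc011ysu.1, was at -0.37 with an error of 1.23. The other finite rows spread from -0.82 for uc007pbb.2 to 0.48 for uc007paz.2, with errors of 10.96 and 12.6 log2 units at these ends. The row uc011ysr.1 was lower in q2 as a ratio against a value listed at 0, with a deposited p-value of 0.479. It is the other tested member row past 2-fold, and no fold is given for it.

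Rtl1, a protein-coding gene derived from a retrotransposon, had 2 tested rows of 7. The first, uc011ysk.1, was at 0.09 with an error of 0.51, an interval from -0.90 to 1.09. The second, uc007pax.2, was at -0.15 with an error of 2.74. Whether strand was used in counting is not given in the labels. If it was not, reads of Rtl1 and of the maternal transcript antisense to it cannot be told apart, and the same holds for Igf2 and RNA antisense to it.

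Mirg, the microRNA host at the end of the domain, was the least well measured of the 7. Of its 18 rows, 12 were not tested and 4 had too little data. As at the Rtl1 and Rian loci, each row lists only the span of the whole locus. Which of these rows stand for small RNAs inside the gene is therefore not known. The tested rows uc011ytv.1 and uc011ytw.1 were at -0.04 and -0.38, with errors of 1.63 and 2.27. The interval of uc011ytv.1, from -3.24 to 3.16, leaves room for a 9.43-fold difference.

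Over both domains, 27 tested rows had a finite ratio, 4 higher in q2 and 23 lower, with a median of -0.22. Over all tested rows with a finite ratio the median was 0.0046, and 49.5% were lower in q2. The sizes were ordinary, with a median of 0.25 for the members and 0.26 over all. Of the 28 tested rows, 0 were at least 2-fold higher in q2, against 9.01% of all tested rows, and 2 at least 2-fold lower, against 8.08%. On chromosome 7, 5 of 6 finite rows were lower in q2, with a median of -0.26. On chromosome 12, 18 of 21 were lower, with a median of -0.16. Rows of 1 gene share reads, so these counts describe 7 genes rather than 27 measurements. The median error of the 27 rows was 2.11 log2 units, wider than the 0.89 over all tested rows with a finite ratio.

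Counted by gene, 5 of 7 were lower in q2 and 2 higher, with a median of -0.13. For comparison, the most precise tested row was taken at every locus, and 12626 loci had one with an error of at most 1 log2 unit. Their median was -0.02, with quartiles of -0.21 and 0.16, and 52.8% were lower in q2. Among them the ratio of H19 lay above 93.6% of loci, that of Rtl1 above 67.0%, that of Dlk1 above 29.8% and that of Igf2 above 18.2%. H19 and Igf2 were thus outside the quartiles, while Dlk1, Meg3, Rtl1 and Rian were within them. Mirg, whose error is larger, was within them too.

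**Figure D3:**
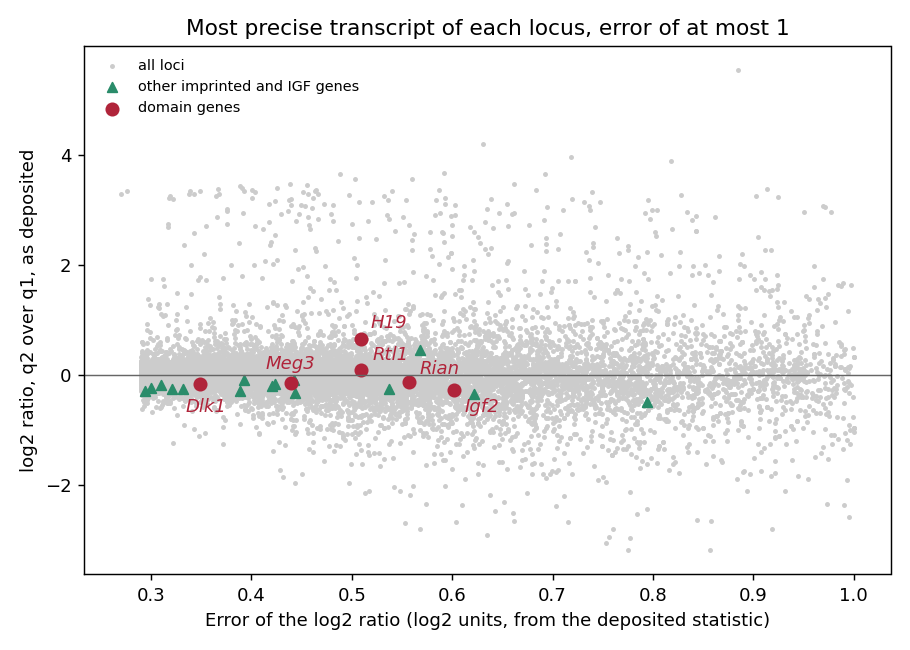
Deposited log2 ratio of q2 over q1 (vertical axis) against its error (horizontal axis) for the most precise transcript of each of the 12626 loci with an error of at most 1 (grey), the domain genes (circles) and other imprinted and IGF genes (triangles). H19 lies above 0 at 0.65, the triangles but 1 lie below 0, and Mirg, with an error of 1.63, is not drawn.

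Other imprinted genes and partners of Igf2 had ratios mostly below 0, in a list chosen with earlier results of these data known. Of a list of 26, 16 could be paired with a locus, and 15 had a tested row with a finite ratio. Of these 15, 0 were called by the authors, against 1.66% of the 13344 loci with such a row, and 0 were past 2-fold, against 8.57%. Their log2 ratios ran from -0.50 to 0.44 with a median of -0.25, against -0.02 over the 12626 loci with an error of at most 1. Below 0 were 14 of 15, against 52.8% of those loci. All 15 intervals hold 0, with errors between 0.29 and 0.79, so the direction of no single gene is settled. The single gene above 0 was Dcn, a matrix proteoglycan, at 0.44 with an error of 0.57.

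Igf1r, the receptor through which Igf2 signals, was at -0.30 with an error of 0.39. The RNA-binding proteins named for Igf2 were all below 0, Igf2bp1 at -0.20, Igf2bp2 at -0.35 and Igf2bp3 at -0.30. Grb10, an adaptor that restrains insulin and IGF receptor signalling, was at -0.21 with an error of 0.42. Cdkn1c, a cyclin-dependent kinase inhibitor on chromosome 7 like Igf2, had the lowest ratio of the list, -0.50, with an error of 0.79. Its neighbour Phlda2, which restrains placental growth, was at -0.26.

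Peg10, derived from a retrotransposon like Rtl1, was at -0.33 with an error of 0.44, and Peg3, a zinc finger gene, at -0.26 with an error of 0.33. Gnas, which encodes a G protein subunit, was at -0.10 with an error of 0.39. Ins2, the insulin gene next to Igf2, had no tested row with a finite ratio. The locus of Igf2r, the receptor that clears Igf2, was not paired and is not analysed here.

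The cell types of the libraries were checked with marker genes of the same table, by ratios alone. Genes of blood differed most. Of 3 globin genes, 2 were called higher in q2 by the authors, Hba-a1 at a log2 ratio of 3.28 with an error of 0.34 and Hbb-bh1 at 3.29 with an error of 0.27. The other, Hbb-y, had no tested row with a finite ratio. Some globin genes are near-identical copies whose reads can be split. The 3 paired endothelial markers lay between 0.53 and 1.40, and 0 were called. Epithelial markers of the non-neural ectoderm had negative ratios in all 7 genes. The ratio of Trp63, -15.9, had an error of 1825 log2 units and carries no direction. Intervals of 4 of the 7 hold 0, among them those of Krt8 at -0.61 and Krt18 at -0.17. Cdh1, an adhesion molecule of epithelia, was at -2.12 and Epcam at -2.19, and both were called lower in q2. Grhl3, whose locus drives the Cre, was at -2.46 with a q-value of 0.171.

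Mesenchymal markers were even, 3 above 0 and 3 below, from -0.34 to 0.25, and 0 of 6 were called. Of 7 neural markers, 3 could be paired, with Nes at -0.33, Pax3 at -0.66 and Olig2 at 0.40, and 0 were called. The 2 endoderm markers with a tested row lay at -0.03 and 0.29. Ratios of all 7 members were smaller in size than the 3.28 and 3.29 of the globin genes. The part of cell mixture in the members' ratios was not tested. In bulk libraries, fewer cells of a type and less RNA per cell cannot be told apart.

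**Figure D4:**
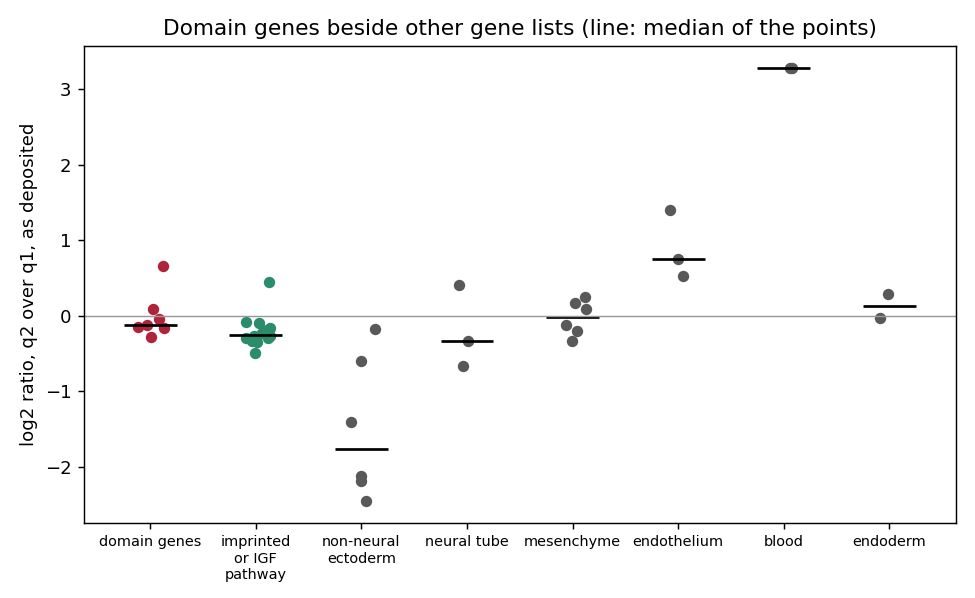
Deposited log2 ratio of q2 over q1 (vertical axis) for the most precise transcript of the 7 domain genes, of other imprinted or IGF pathway genes and of markers of 6 cell types, 1 point per gene and a line at the median of the points. The domain genes have a median of -0.13, the 2 globin genes under blood lie at 3.28 and 3.29, and Trp63, with an error of 1825, is not drawn.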

How the data were processed

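TopHat 1.3.2, Cufflinks 2.0.2, Cuffdiff and the build mm9 are named in the submitters' processing notes. No source used here gives the annotation, the settings or the use of strand. The authors deposited 1 table of their comparison, with p-values and q-values per transcript. The authors also deposited 2 columns read here as a score, namely the test statistic and a fold change on the log2 scale with placeholders for ratios against 0. The table's 2 abundance columns match no sample and were left out. The planned gene ratios from summed abundances were therefore not run, and each gene's most precise deposited ratio was used in their place. Depth is unknown from the columns used.

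Members and lists were chosen with earlier results of these data known. Rows were named by position on mm9. Starts count from 0 in the table (29 of 30 hairpins had exactly the RefSeq length) and are printed from 1. The lower edges of H19 and Igf2 lay 75237 bases apart in the table and 75238 in RefSeq, and the upper edges of Dlk1 and Meg3 108393 apart in both. Rtl1 was named by position alone. Other genes were paired with a locus of similar length (ratio of at least 0.6) with 1 edge at the RefSeq distance, within 100 bases, from at least 3 of 7221 anchor loci. No coordinates were converted. Of the blood markers, only globin genes are reported here. On simulated positions, 298 of 300 genes were paired, all with the right locus, and 1 of 300 displaced genes was paired. The error, the choice of the most precise row and the 2-fold count were tested on 2000 simulated rows.

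Intervals are the log2 ratio plus and minus the normal 95% range of its error. Named were all 7 genes, tested rows at least 2-fold different, and the lowest and highest ratios of each gene. The planned choice of a gene's main row and of the 3 highest other imprinted genes by abundance was not possible. The lowest error took its place, a rule chosen after values of these data had been seen. The other imprinted genes described were also chosen after their values were seen. With 2 libraries, likeness of pattern between genes could not be measured. Python 3.11.15, numpy 2.4.6, pandas 2.3.3 and matplotlib 3.10.9 were used.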

Additional observations from a re-analysis of the deposited data

How the results depend on the processing

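No replicate could be left out, and no paired analysis was possible because each condition was 1 library. Alternatives that needed abundances (pseudocounts, sums over tested rows, the highest row, upper-quartile scaling, a minimum abundance) were not run. Centring on the median of 0.0046 kept the sign of all 7 genes. The main rule, a gene's most precise transcript, was not planned and was itself chosen after values of these data had been seen. Also chosen after seeing the data were a gene's second most precise transcript, the median of its tested transcripts, and an error of at most 1 log2 unit. With the second most precise transcript H19 went from 0.65 to -0.24 and Rtl1 from 0.09 to -0.15. With the median Rtl1 was at -0.029, while H19 stayed above 0 at 0.21. The second transcripts of H19 and Rtl1 had errors of 105 and 2.74 log2 units, and their medians rest on the same rows. These changes of sign therefore carry no direction. The other 5 genes kept their sign with the second most precise transcript and with the median. The 2 transcripts at least 2-fold lower in q2 became 1 at 4-fold and 0 with an error of at most 1. The count of 0 calls was also 0 at a q-value of 0.1 or a p-value under 0.05. Precision limits Mirg most, and 53 of the 88 rows were not tested and 7 had too little data.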
